A study of Mus musculus with 12 samples.

Results

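Alveolar type II cells are the surfactant-making cells of the lung alveolus. They pack lipid and surfactant proteins into lamellar bodies, storage organelles that are released onto the alveolar surface, and the transcription factors Nkx2-1 and Cebpa help to keep this programme switched on. The 10 genes described here are those by which such cells are usually recognised: Sftpb, Sftpc and Sftpd for surfactant proteins, Abca3 and Lamp3 for lamellar body membranes, Napsa, Slc34a2 and Lyz2 for other products of the cell, and Nkx2-1 and Cebpa as regulators. A gene was read through every probe set that the platform annotation pairs with its symbol alone, and its lead probe set was the one that averaged highest on the 12 arrays. This left 9 of the 10 genes with 13 probe sets, out of 18193 genes on the array. The probe set of Lamp3, which encodes a lamellar body membrane protein, is also assigned to another gene, so Lamp3 has no value here.

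The cells were A2C12, a line derived from a lung tumour of a C57BL/6 mouse that carried c-myc and c-raf as transgenes. All groups carry both transgenes, and all values come from this single line. Which promoter drives the transgenes is not given in the sources used here. Cells were sorted by how well they expel a Hoechst dye, which gave the dye-poor side population (SP) and the remaining non-SP cells. All groups share a listed Hoechst exposure of 5 µg/ml for 90 min and a listed reserpine concentration of 50 µmol/l. The 4 groups were SP cells and non-SP cells that had received a monoclonal antibody against EpCAM, an adhesion protein of epithelial cells, at 100 µg/ml for 48 h, and SP cells and non-SP cells without antibody, with 3 biological replicates each. Transcripts were measured on 12 Affymetrix mouse arrays and are given as log2 values summarised by RMA, so that a difference of 1 is a 2-fold change. The labels do not say whether replicates came from separate cultures, and p-values measure the spread between these samples. SP and non-SP arrays of the same number and treatment deviated together and are called a culture here, which gives 6 cultures.

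Array medians lay between 5.72 and 6.06. The SP and the non-SP array of anti-EpCAM culture 2 had the lowest mean correlations with the other arrays, 0.983 and 0.978 against at least 0.985 for the remaining 10. Their actin probe sets also showed the widest gap between the 3′ and the 5′ end, 1.03 and 0.895 on the log2 scale against at most 0.733. The closing section gives what leaving out both arrays changed.

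An array has no true zero, so a background limit was set on each array from genes that lung epithelium is not known to use. The limit was the 95th percentile of 80 probe sets for odour and pheromone receptors, and it lay between 5.28 and 6.16 on the 12 arrays. Of the 71 receptor genes behind it, 63 were above the limit on no array, 7 on some arrays, and 1, Vmn1r44, on all 12. Probe sets differ in how strongly they bind, so each gene is read against this limit and its own values, and not against another gene's level.

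Sftpb, Abca3, Napsa, Slc34a2 and Cebpa lay above the limit on all 12 arrays. Sftpd lay at background on all 12, Nkx2-1 on 10, Sftpc on 6 and Lyz2 on 2. Thus 5 of 9 genes were above background throughout, against 57.0% of all 18193 genes (10373 genes). Counted over probe sets it was 6 of 13, against 48.0% of all 34945 probe sets with 1 symbol. Both shares were near those of all genes.

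**Figure D1:**
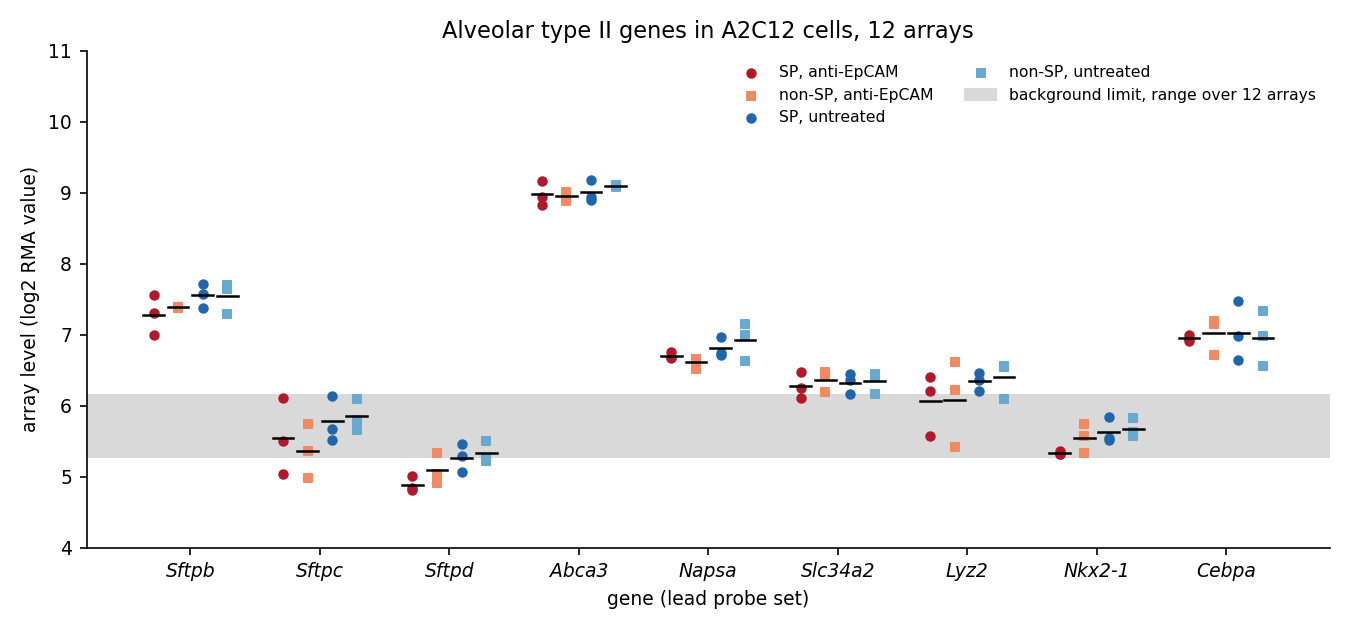
Level of the lead probe set of each gene (vertical axis, log2 RMA value) in 4 groups of 3 arrays. Points are arrays, black bars are group means, and the grey band spans the background limits of the 12 arrays. Sftpd, Nkx2-1 and Sftpc lie in or below the band, Lyz2 and Slc34a2 near its top, and Abca3 well above it.

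The promoter windows of Sftpb and Slc34a2 are shown because both genes were above background on all 12 arrays and their windows hold a searched motif of NKX2-1 or of C/EBP factors. The windows run from 250 bases before to 50 after the annotated start, are taken from RefSeq on GRCm38.p6, and were available for 7 of the 10 genes. Capitals mark CTCAAG, a sequence recognised by NKX2-1, in Sftpb (chr6:72304360-72304659, plus strand), and TTGCNNAA, a core recognised by C/EBP factors, in Slc34a2 (chr5:53049103-53049402, plus strand).
Sftpb: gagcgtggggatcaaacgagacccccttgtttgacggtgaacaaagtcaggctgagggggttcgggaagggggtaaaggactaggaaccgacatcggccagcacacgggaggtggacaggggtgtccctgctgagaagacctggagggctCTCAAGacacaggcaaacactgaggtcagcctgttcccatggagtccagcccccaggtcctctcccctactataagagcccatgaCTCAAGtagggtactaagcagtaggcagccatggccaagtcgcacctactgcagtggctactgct
Slc34a2: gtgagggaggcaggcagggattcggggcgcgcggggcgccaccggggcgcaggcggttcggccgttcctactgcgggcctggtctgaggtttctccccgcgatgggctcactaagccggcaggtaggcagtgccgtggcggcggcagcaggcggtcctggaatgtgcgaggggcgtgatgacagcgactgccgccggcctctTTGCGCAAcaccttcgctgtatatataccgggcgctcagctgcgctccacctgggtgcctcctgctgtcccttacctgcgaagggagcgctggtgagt
The Sftpb window holds CTCAAG at 100 and 15 bases before the start, and the Slc34a2 window holds a TTGCNNAA match 48 bases before it that reads as a match on both strands. The windows of Nkx2-1, Abca3, Lyz2 and Cebpa held neither motif on either strand, nor the forkhead sequence TGTTTAC, which was found once, in Lamp3. Over all 32851 windows CTCAAG occurs in 15.9%, TTGCNNAA in 10.8% and TGTTTAC in 3.65%. A match describes letters in the window and does not show binding in these cells.

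Among the surfactant proteins, Sftpb encodes the small hydrophobic protein that is needed for lamellar bodies and for the surface film. Its level was 7.31, 6.99 and 7.56 in anti-EpCAM SP cells and 7.40, 7.40 and 7.38 in anti-EpCAM non-SP cells. It was 7.71, 7.37 and 7.57 in untreated SP cells and 7.64, 7.30 and 7.70 in untreated non-SP cells. All groups overlapped, and the lowest value, in the SP array of anti-EpCAM culture 2, was still 1.19 above its array's limit.

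Sftpc encodes the surfactant protein that is most restricted to type II cells. It stood at 5.50, 5.03 and 6.11 in anti-EpCAM SP cells and at 4.98, 5.36 and 5.75 in anti-EpCAM non-SP cells. Untreated SP cells had 5.52, 5.68 and 6.14 and untreated non-SP cells 6.09, 5.66 and 5.80. These values scatter around the limit, from 0.80 below it to 0.31 above it, and replicates of a group differed by up to 1.08. A second probe set of Sftpc, with a mean of 4.21, was at background on all 12 arrays.

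Sftpd encodes a collectin, a soluble surfactant protein of innate defence. Its level was 4.84, 4.82 and 5.01 in anti-EpCAM SP cells and 5.34, 5.04 and 4.91 in anti-EpCAM non-SP cells. Without antibody it was 5.06, 5.29 and 5.46 in SP cells and 5.22, 5.26 and 5.51 in non-SP cells. Every value was at least 0.31 below its array's limit. Anti-EpCAM SP arrays lay below all untreated SP arrays, while SP and non-SP arrays overlapped in both treatments, as did anti-EpCAM and untreated arrays of the non-SP fraction. Sftpa1, a further collectin that is not among the 10 genes, was likewise at background on all 12 arrays, with a mean of 5.04 ± 0.43 (SD, n = 12).

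Abca3 encodes the pump that loads lipid into lamellar bodies, and its lead probe set lay above the limit by 2.72 to 3.89. It read 9.17, 8.83 and 8.94 in anti-EpCAM SP cells and 8.98, 8.88 and 9.02 in anti-EpCAM non-SP cells. Untreated SP cells had 8.90, 8.94 and 9.18, and untreated non-SP cells 9.11, 9.08 and 9.09. Anti-EpCAM non-SP arrays lay below untreated non-SP arrays, and the fractions overlapped in both treatments. With an SD of 0.12 over 12 arrays it had the smallest spread of the 9 genes. Its 3 probe sets disagreed on level: a second, with a mean of 7.26, was above the limit on 12 arrays, and the last, with a mean of 4.08, on none.

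Napsa encodes napsin A, an aspartic protease that helps to process surfactant protein B. Its values were 6.68, 6.67 and 6.76 in anti-EpCAM SP cells and 6.66, 6.51 and 6.66 in anti-EpCAM non-SP cells. They were 6.75, 6.97 and 6.71 in untreated SP cells and 7.00, 7.15 and 6.63 in untreated non-SP cells. Within the antibody-treated cells the SP arrays lay just above the non-SP arrays, which holds for 1 of the 9 genes against 0.572% of all genes, while anti-EpCAM and untreated arrays overlapped in each fraction. That SP minus non-SP difference was 0.09, with an adjusted p of 1.0 in limma. Here too the probe sets disagreed, since the other one, with a mean of 4.41, was at background on all 12 arrays.

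Slc34a2 encodes a sodium-phosphate cotransporter that takes up phosphate at the apical surface of the type II cell. It was at 6.11, 6.48 and 6.25 in anti-EpCAM SP cells and at 6.47, 6.41 and 6.19 in anti-EpCAM non-SP cells. In untreated cells it was at 6.37, 6.16 and 6.45 in the SP and at 6.42, 6.16 and 6.45 in the non-SP fraction. All groups overlapped. These values lay only 0.21 to 0.83 above the limit, and a stricter limit at the 99th percentile was passed on 4 of 12 arrays.

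Lyz2 encodes a lysozyme that type II cells share with macrophages, and it has a close paralogue, Lyz1, whose probe set was at background on all 12 arrays. Lyz2 read 6.41, 6.21 and 5.57 in anti-EpCAM SP cells and 6.61, 6.22 and 5.41 in anti-EpCAM non-SP cells. It read 6.47, 6.37 and 6.20 in untreated SP cells and 6.56, 6.09 and 6.55 in untreated non-SP cells. Both low values, the only 2 under the limit, belong to anti-EpCAM culture 3, and all groups overlapped. Of 18 macrophage markers 4 were above background on all 12 arrays, a share below the 57.0% of all genes, and 11 on none. Among the 4 were Csf1r at 9.98 ± 0.41 (SD, n = 12) and Cd14 at 8.94 ± 0.29 (SD, n = 12). The defining markers Ptprc, Adgre1 and Itgam were at background on every array, with means of 3.42, 4.67 and 3.87.

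Of the regulators, Nkx2-1, a homeobox factor of lung and thyroid, was at 5.33, 5.37 and 5.32 in anti-EpCAM SP cells and at 5.58, 5.74 and 5.33 in anti-EpCAM non-SP cells. It was at 5.85, 5.51 and 5.54 in untreated SP cells and at 5.83, 5.63 and 5.57 in untreated non-SP cells. The anti-EpCAM SP arrays lay below all untreated SP arrays. None of its values passed the limit by more than 0.04, and the only 2 above it were on the array of anti-EpCAM SP replicate 1 and that of untreated non-SP replicate 2. Of the 80 receptor probe sets 92.5% had a mean below that of Nkx2-1.

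Cebpa, a leucine zipper factor needed for type II cell maturation, was above the limit on every array by 0.97 to 1.62. It was at 6.91, 7.00 and 6.94 in anti-EpCAM SP cells and at 7.16, 7.19 and 6.71 in anti-EpCAM non-SP cells. Untreated SP cells had 7.47, 6.64 and 6.98, and untreated non-SP cells 7.33, 6.57 and 6.98. All groups overlapped. The spread lay between cultures rather than within them: the SD between culture means of a treatment was 0.30 and that between the fractions of a culture 0.12.

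**Figure D2:**
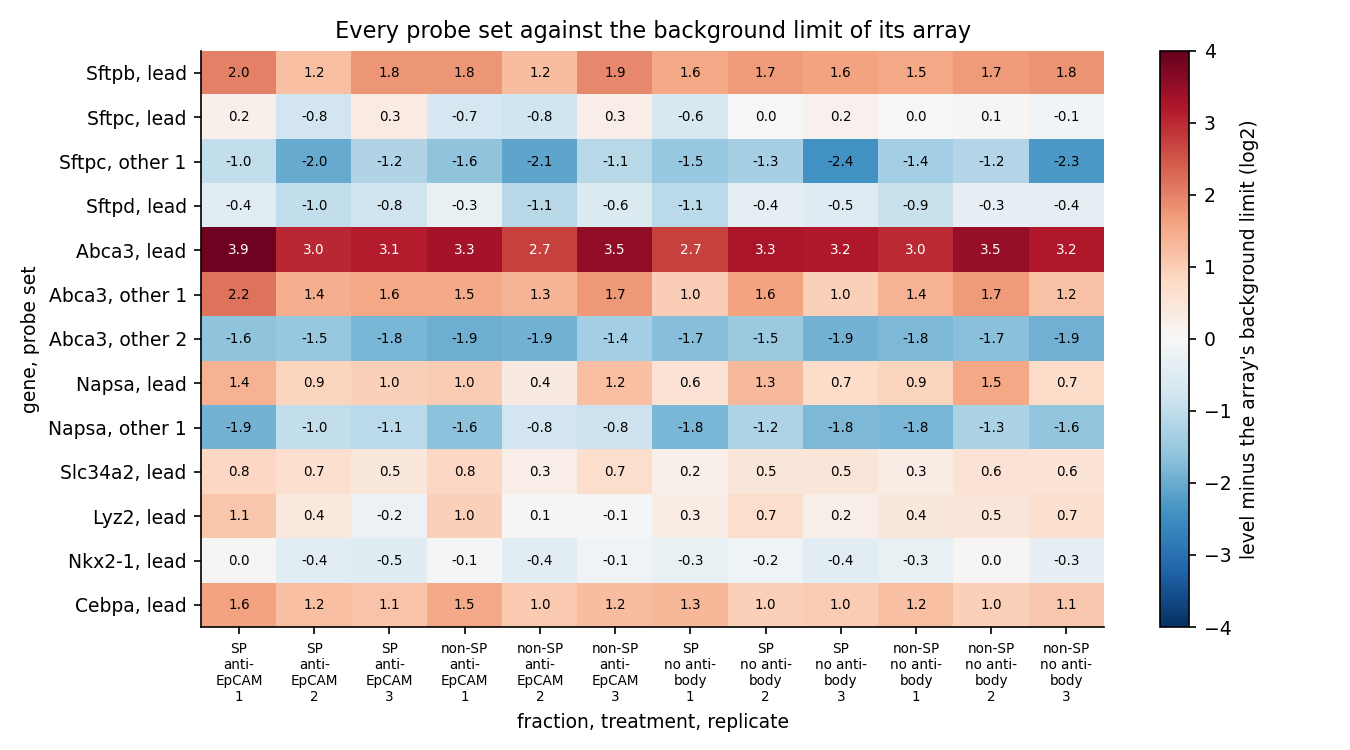
Level of each of the 13 probe sets minus the background limit of the same array (colour and number, log2), with genes and probe sets down the page and the 12 arrays across it ("no antibody" stands for untreated cells). Sftpd and the other probe sets of Sftpc and Napsa are below the limit on every array, while the 3 probe sets of Abca3 range from well above to well below it.

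The same reading was made for lists of other lung and tumour genes, and each count stands beside the 57.0% of all genes that were above background on all 12 arrays. Of 20 measured other type II genes 11 were above background on all 12 arrays and 3 on none, a share near that of all genes. Among the 11 were Il33, an alarmin cytokine, at 13.0 ± 0.18 (SD, n = 12), and the lipid synthesis genes Scd1 at 12.2 ± 0.13 (SD, n = 12), Elovl1 at 11.1 and Fasn at 10.3, which many cell types use. Ctsh, a cathepsin, was at 10.3, and Cxcl15, a chemokine of lung epithelium, at 10.1 ± 0.56 (SD, n = 12). Lpcat1, which makes surfactant phospholipid, was at 8.50 ± 0.22 (SD, n = 12).

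Among 21 measured regulators of the lung lineage 18 were above background on all 12 arrays. Foxa2, a forkhead factor that acts on surfactant genes, was at 10.0 ± 0.22 (SD, n = 12), and Id2, a helix-loop-helix factor of lung tips, at 11.3. The 3 at background on every array were Foxa1, Sox2 and Elf5, with means of 4.07, 2.82 and 5.17. Cebpb, which encodes a C/EBP factor like Cebpa, was at 12.4 ± 0.29 (SD, n = 12).

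Type I cells line the gas exchange surface, and 9 of 15 of their markers were above background on all arrays. This share was near the 57.0% of all genes. Among the 9 were Cav1 at 12.2, Pdpn at 11.3 and Emp2 at 11.1, while 3 markers, Akap5, Cldn18 and Scnn1g, were above background on no array. Club, ciliated and basal cell lists had 3 of 10, 2 of 9 and 2 of 5 genes above it. The club cell markers Scgb1a1, Scgb3a2 and Cyp2f2 were among 4 of that list at background on all 12 arrays. The 3 above it on all 12 were Cldn10 at 8.07, Cbr2 at 7.87 and Krt15 at 7.18. Another list holds gut and stomach genes that lung tumours without Nkx2-1 are known to express. Of these, 5 of 18 were above background on all 12 arrays, a share below the 57.0% of all genes. Among the 5 were the trefoil factor gene Tff1 at 9.44 ± 0.29 (SD, n = 12) and the protease gene Ctse at 8.21 ± 0.88 (SD, n = 12). The 6 at background on every array were Hnf4g, Foxa3, Pdx1, Vil1, Krt20 and Onecut2. Hnf4a, a regulator of gut genes, was at 6.08 and above the limit of its array on all 12. Its values, from 5.59 to 6.43, were near those limits, which lay between 5.28 and 6.16.

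The line is labelled as a lung tumour line, and epithelial and mesenchymal genes were read in the same way. Of 13 measured epithelial genes 5 were above background on all arrays, with Krt19 at 11.7 ± 0.37, Krt8 at 8.77 ± 0.26 and Epcam at 8.11 ± 0.19 (SD, n = 12 each). Cdh1, the epithelial cadherin gene, was above it on 9 of 12, at 6.35. The 4 epithelial genes at background on every array were Krt7, Cldn4, Esrp1 and Ocln, with means of 4.70, 5.43, 4.02 and 5.03. Of 14 mesenchymal genes 12 were above background on all arrays, among them Vim at 14.0 ± 0.13, Fn1 at 13.8 ± 0.08 and Sparc at 13.1 ± 0.37 (SD, n = 12 each). Of 7 endothelial genes 1, Kdr, was above it on all 12, at 6.70. Bulk arrays cannot tell fewer cells of a kind from less RNA per cell.

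**Figure D3:**
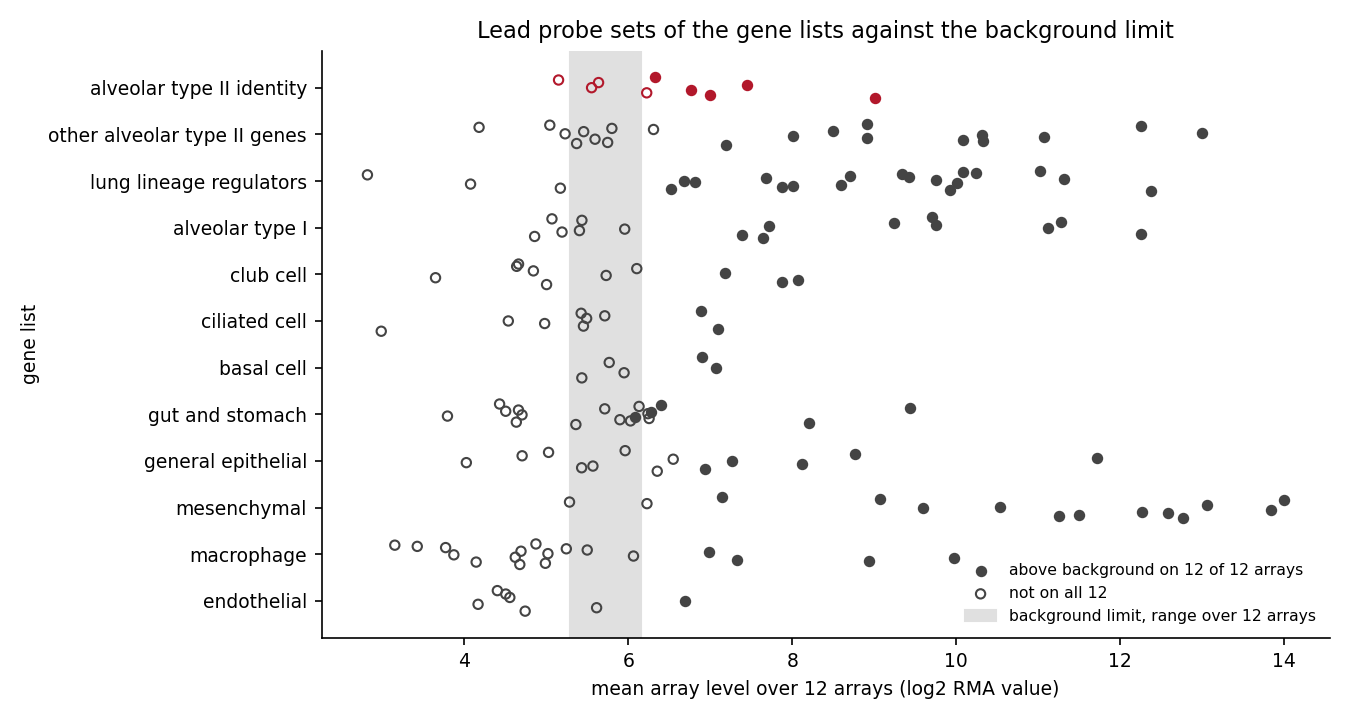
Mean level over 12 arrays (horizontal axis, log2 RMA value) of every measured gene of 12 lists. Filled points were above background on all 12 arrays, open points were not, and the grey band spans the background limits of the arrays. Points are read against the band and not against each other. Of the type II identity genes 5 of 9 are filled, and of the mesenchymal genes 12 of 14.

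The antibody comparison asks whether 48 h of anti-EpCAM changed these genes. Each culture was counted once by the mean of its 2 arrays, 3 anti-EpCAM against 3 untreated culture means. None of the 9 genes passed limma's test at a Benjamini-Hochberg adjusted p under 0.05, and 0% of all genes did (0 of 18193, with a lowest adjusted p of 0.991). Before adjustment 461 genes, 2.53% of all, had a p under 0.05, of which 31 were higher and 430 lower, and none was among the 9. All 9 genes had a negative log2 difference, with a median of -0.21, while the median of all genes was -0.11. Relative to that median 6 of the 9 were lower.

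Sftpc averaged 5.46 ± 0.41 in anti-EpCAM and 5.82 ± 0.15 in untreated cultures (SD, n = 3 each), a difference of -0.36 with a 95% interval from -0.86 to 0.13. This value was -0.60 without anti-EpCAM culture 3, -0.19 with each array centred on its median and -0.04 in the other probe set. Sftpd averaged 4.99 ± 0.08 in anti-EpCAM and 5.30 ± 0.17 in untreated cultures (SD, n = 3 each), a difference of -0.31 with an interval from -0.68 to 0.06. Lyz2 averaged 6.07 ± 0.52 in anti-EpCAM and 6.37 ± 0.14 in untreated cultures (SD, n = 3 each), a difference of -0.30, which was -0.01 without the low anti-EpCAM culture 3 and -0.13 with centred arrays. Each interval includes 0, so the data show no change beyond the spread between cultures, and the widest bounds allow a level up to 1.82-fold lower in anti-EpCAM cultures for Lyz2 and 1.81-fold lower for Sftpc.

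For Sftpb the difference was -0.21 (interval from -0.60 to 0.17), for Nkx2-1 -0.21 (-0.58 to 0.16) and for Napsa -0.21 (-0.58 to 0.17). With each array centred on its median Sftpb was at -0.044 and Napsa at -0.038. Abca3, Slc34a2 and Cebpa stood at -0.08, -0.01 and -0.01, with intervals reaching from -0.50 to 0.48 at most. Abca3, Slc34a2 and Cebpa turned positive, to 0.086, 0.153 and 0.158, when each array was centred on its own median, and in Abca3 also through its second probe set, at 0.117. Napsa had a difference of 0.188 in its other probe set, which lay at background.

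The 3 anti-EpCAM culture means lay below the 3 untreated means without overlap for Sftpd and Nkx2-1, 2 of 9 genes, against 6.95% of all genes. The two-sided exact permutation test gave p = 0.1 for each, the smallest that 3 against 3 can give, and between 0.3 and 1 for the other 7. These 2 genes lie at or near background, and array medians lay between 5.72 and 5.86 in anti-EpCAM and between 5.80 and 6.06 in untreated arrays. With each array centred on its median the differences were -0.14 for Sftpd and -0.04 for Nkx2-1.

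By fraction, the antibody differences of the 9 genes ran from -0.49 (Sftpc) to 0.06 (Cebpa) in non-SP cells, with a median of -0.16 against -0.10 for all genes. In SP cells they ran from -0.38 (Sftpd) to -0.03 (Abca3), with a median of -0.23 against -0.12 for all genes. No gene passed in either fraction (0% of all genes each, lowest adjusted p in limma 0.988 and 0.776). An unadjusted p under 0.05 was reached by 585 genes in non-SP cells, 3.22% and none of the 9, and by 835 in SP cells, 4.59% and 1 of the 9. That gene was Sftpd, at 4.89 ± 0.11 in anti-EpCAM SP and 5.27 ± 0.20 in untreated SP cells (SD, n = 3 each), with an adjusted p of 1.0 in limma.

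Arrays did not overlap for Abca3 in non-SP cells, where anti-EpCAM arrays were lower (1 of 9 genes, against 6.62% of all genes lower in this way). In SP cells this held for Sftpd and Nkx2-1 (2 of 9, against 8.04%). The interaction, the antibody difference in SP minus that in non-SP cells, ran from -0.17 (Nkx2-1) to 0.25 (Sftpc). It passed for 0 of the 9 and 0% of all genes, with 43 genes (0.236%) at an unadjusted p under 0.05 and none of the 9 among them.

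**Figure D4:**
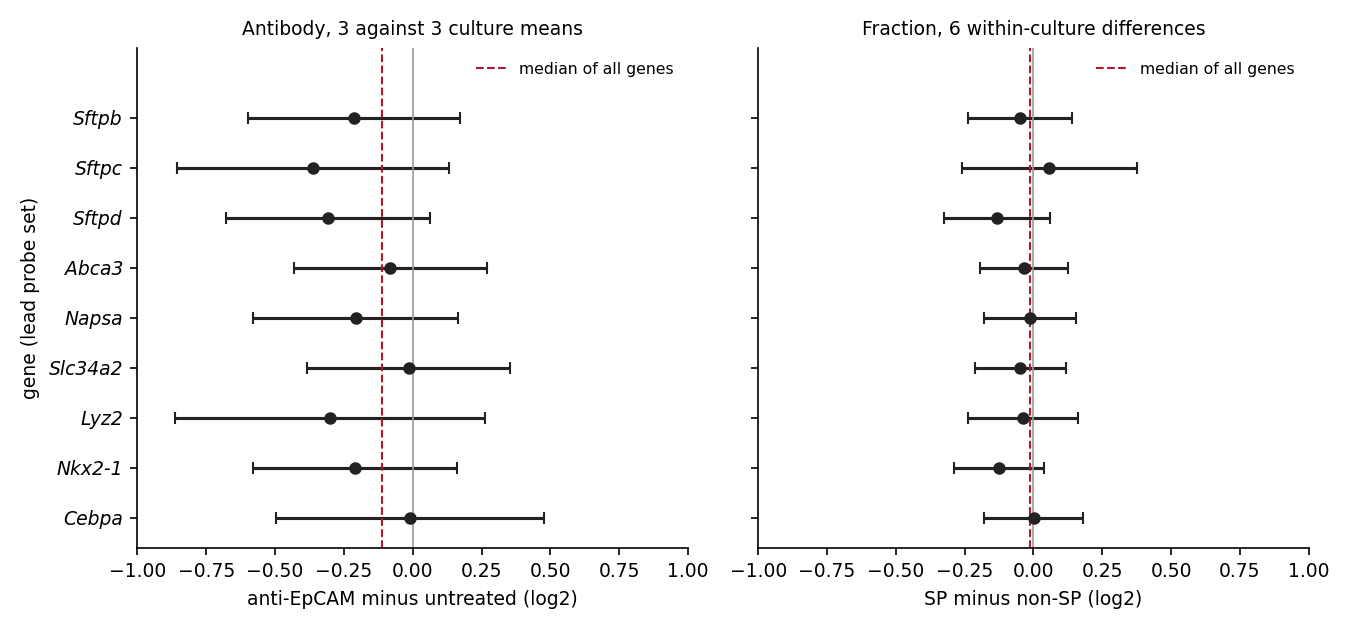
Log2 differences with 95% intervals from limma for anti-EpCAM minus untreated (left, 3 against 3 culture means) and SP minus non-SP (right, 6 within-culture differences). Red dashed lines mark the median of all genes. Every interval includes 0, and those of the fraction comparison are narrower.

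The fraction comparison asks whether the dye-excluding cells differ in these genes. Over the 6 within-culture differences none of the 9 genes passed in limma and 0% of all genes did (lowest adjusted p 0.958). An unadjusted p under 0.05 was reached by 370 genes, 2.03%, and by 0 of the 9. The differences, SP minus non-SP, ran from -0.13 (Sftpd) to 0.06 (Sftpc), with a median of -0.04 against -0.01 for all genes. The bound of a 95% interval farthest from 0 was 0.37, for Sftpc, which is 1.30-fold.

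Nkx2-1 was lower in the SP array of 5 of 6 cultures, with a difference of -0.13 (interval from -0.29 to 0.04). An exact permutation test that flips the signs of the 6 differences, two-sided, gave p = 0.094, where the smallest possible is 0.031 and 9 genes were tested. None of the 9 was lower in the SP array of all 6 cultures, against 0.786% of all genes. Sftpc differed by 0.51, -0.32 and 0.37 in the 3 anti-EpCAM cultures and by -0.57, 0.02 and 0.34 in the 3 untreated cultures, the widest scatter of the 9. Sftpb differed by -0.09, -0.40 and 0.17 in the anti-EpCAM and by 0.07, 0.08 and -0.12 in the untreated cultures. Without anti-EpCAM culture 2 its difference was 0.022 in place of -0.049.

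Of the 20 other type II genes and the 21 lineage regulators, 0 passed limma's test in either direction, for the antibody or for the fraction. Their median differences over culture means were -0.13 and -0.06 for anti-EpCAM minus untreated, where the median of all genes was -0.11. Over the 6 within-culture differences they were -0.03 and -0.02 for SP minus non-SP, where it was -0.01.

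Within treatments, with groups of 3 arrays and no culture term, the 9 differences ran from -0.21 to 0.19 in anti-EpCAM cells and from -0.12 to 0.07 in untreated cells. None passed, as with 0% of all genes in each. An unadjusted p under 0.05 was found for 127 genes (0.698%) in anti-EpCAM and 4 genes (0.0220%) in untreated cells, and for none of the 9 in either. SP and non-SP arrays of a culture deviated together, so a fit without a culture term overstates the spread of their difference. Its p-values for the fractions, and those for the interaction above, are therefore too large.

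**Figure D5:**
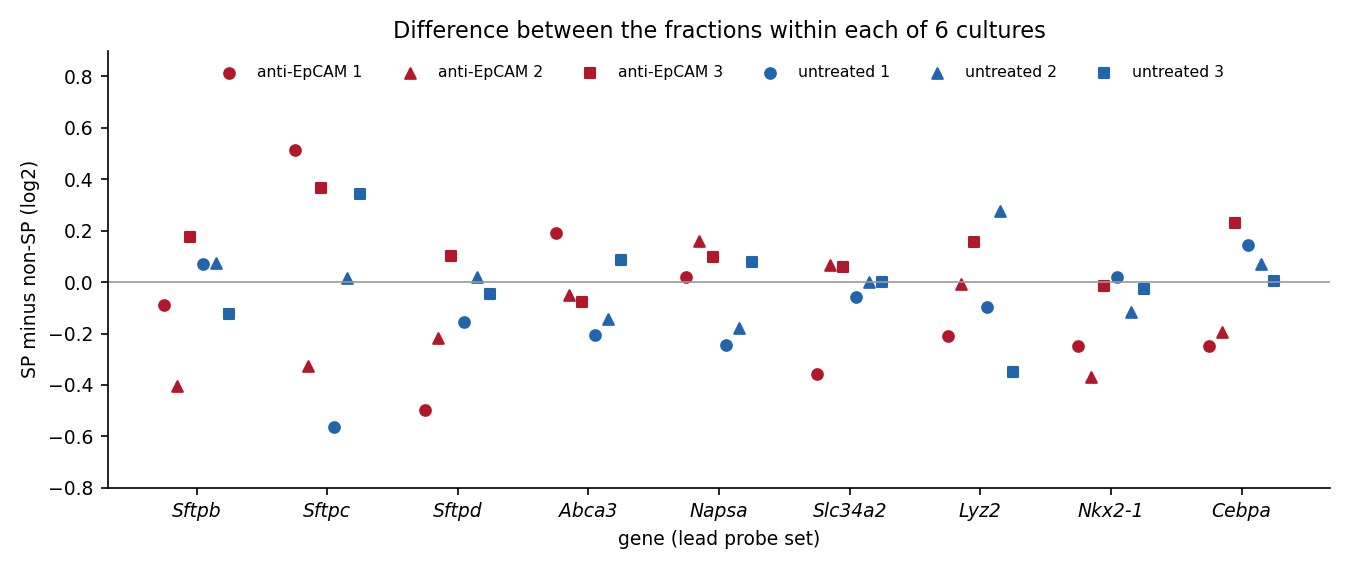
SP minus non-SP difference (vertical axis, log2) of each gene in each of 6 cultures, red for anti-EpCAM and blue for untreated, with the replicate number as the shape. Points fall on both sides of 0 for all 9 genes, with the widest range, from -0.57 to 0.51, in Sftpc.

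Across the arrays no shared pattern of variation was seen among the 9 genes. Sftpc, Sftpd, Nkx2-1 and Lyz2 lay at background on some or all arrays, so pairs with them cannot show whether a pattern is shared. After each array was centred on its median, the 36 pairs of genes had a median Pearson correlation of -0.02 over 12 arrays, from -0.62 for Napsa and Cebpa to 0.59 for Sftpb and Sftpc, and 17 were above 0. The arrays share cultures in pairs, so these are descriptions. The median SD over 12 arrays was 0.21, against 0.26 over all genes, and it ran from 0.12 in Abca3 to 0.38 in Sftpc and Lyz2.

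For the 5 genes above background throughout, the 3 genes with the most similar pattern were taken from the 10373 genes above background on all 12 arrays. For Napsa these were Ablim3, Fblim1 and Ahnak2, with Pearson correlations of 0.98, 0.95 and 0.94 over 12 arrays. Abca3 was nearest to Tbc1d31, Gsn and Synpo, at 0.94, 0.93 and 0.93, and Cebpa to Nxt1, Slamf9 and Extl1, at 0.92, 0.90 and 0.90. Slc34a2 came closest to Braf, Rpp40 and Ppfia4, at 0.90, 0.88 and 0.84, and Sftpb to Abcb9, AA619741 and Sla2, at 0.83 each. None of these 15 neighbours is another of the 5 genes. Sftpc, Sftpd, Nkx2-1 and Lyz2 were not among the 10373 genes, so they could not appear. The highest of 10373 correlations over 12 arrays is high by selection alone, and the arrays share cultures and scaling.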

How the data were processed

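RNA from 12 samples, 200 ng each, was measured on Affymetrix mouse arrays, 3 per group. The authors deposited log2 values summarised with RMA, per the submitters' processing notes, for 45101 probe sets, and array values ran from 2.28 to 14.7. RMA pulls weak signals towards a common floor, so low values understate differences. The number of arrays, 3 per group, limits the precision.

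Probe sets were named from GEO's platform annotation of 2016: 34945 had 1 symbol, 932 several, and 9224 none or were controls. Of the probe sets of a gene the one with the highest mean was used. All 18193 genes were fitted with limma 3.58.1 in R 4.3.3, as 4 group means with 8 residual degrees of freedom, as 6 within-culture differences and as 6 culture means. P-values were two-sided and Benjamini-Hochberg adjusted over all genes, with a threshold of 0.05 and 7 comparisons. Single genes had exact permutation tests in Python 3.11.15 with numpy 2.4.6, 9 per family and unadjusted. The fit of 4 group means was tested on simulated arrays drawn independently of each other. It recovered 43% of log2 changes of 1 for the antibody in non-SP cells and 45% for the fraction in untreated cells. For log2 changes of 2 it recovered 97% and 92%. In the real data the SP and non-SP arrays of a culture deviated together, so the shares for the fraction do not describe these data. The fits of within-culture differences and of culture means were not tested in this way.

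Same-numbered SP and non-SP arrays of a treatment deviated from their group means together, with correlations from 0.55 to 0.844 in all 6 pairs, and were treated as a culture. Same-numbered anti-EpCAM and untreated arrays were not paired, at -0.379 to -0.005.

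The members and lists were chosen with earlier results of these data known. Of each other list up to 6 genes above background on all arrays were to be named, by level. Genes at background and Lpcat1, Cdh1 and Lyz1 were named after their values were seen. Promoter windows came from RefSeq.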

Additional observations from a re-analysis of the deposited data

Results flagged for a closer look

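In the within-culture differences of Slc34a2, anti-EpCAM culture 1 stood apart from the other 5 cultures. Its SP array was below its non-SP array by a log2 difference of -0.358 (6.11 in SP against 6.47 in non-SP cells), while the other cultures lay between -0.06 and 0.07. The gap exceeded the 95% critical value of Dixon's test. The test was made for 9 genes over 6 cultures each, and chance alone gives such a result for about 1 in 20.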

How the results depend on the processing

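No gene passed the threshold under any alternative. Of 200 alternative values for the differences of the 9 genes 171 kept their direction and 29 turned it. Fitting a mean-variance trend or testing only genes above background leaves a difference as it is, so these values could not turn. The setting chosen after seeing the data repeats values from leaving out each culture in turn. The count of 171 therefore overstates how stable the directions were. With culture as a replicate block, fixed or random, 0 genes were called in every paired fit, as without it. The number of genes above background on all 12 arrays was 5, and 5 after quantile normalization or without any 1 array. It was 3 with the 99th percentile (Sftpb, Abca3 and Cebpa), 3 with the lowest probe set of each gene, and 1 (Abca3) with a limit from photoreceptor, lens, sperm and hair genes. That limit lay at 7.56 to 8.42. The calls of Sftpb, Napsa, Slc34a2 and Cebpa as above background thus rest on the choice of background genes. Sftpd was above none of these limits on any array, and Sftpc, Nkx2-1 and Lyz2 were above none of them on all 12.

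Anti-EpCAM minus untreated turned with arrays centred on their medians in Abca3 (0.086), Slc34a2 (0.153) and Cebpa (0.158). It turned with quantile normalization in the same genes (0.039, 0.148 and 0.139), and through other probe sets in Abca3 (0.117) and Napsa (0.188). Leaving out each culture in turn gave -0.101 to 0.041 in Slc34a2 and -0.206 to 0.193 in Cebpa. SP minus non-SP turned with centring in Napsa (0.011), with quantile normalization in Cebpa (-0.020), and through other probe sets in Sftpc (-0.003) and Abca3 (0.053). Leaving out each culture gave -0.094 to 0.022 in Sftpb, -0.033 to 0.183 in Sftpc, -0.078 to 0.001 in Abca3, -0.046 to 0.035 in Napsa, -0.071 to 0.013 in Slc34a2, -0.101 to 0.024 in Lyz2 and -0.045 to 0.051 in Cebpa. Without both arrays of anti-EpCAM culture 2, chosen after seeing the data, the fraction difference was 0.022 in Sftpb and 0.135 in Sftpc. The antibody difference was then -0.140 in Sftpb, -0.232 in Sftpc, -0.277 in Sftpd, -0.267 in Nkx2-1, -0.024 in Abca3, -0.174 in Napsa, -0.078 in Slc34a2, -0.373 in Lyz2 and -0.066 in Cebpa. The causes were not tested.

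The median 95% interval over all genes reached 0.434 (1.35-fold) to either side for the antibody over culture means and 0.191 (1.14-fold) for the fractions. The setting with only genes above background kept each gene that passed the limit on all 3 arrays of at least 1 group. Sftpc, Sftpd and Nkx2-1 were not tested there. Lyz2 was kept only through the untreated groups, so that setting gives no support for its antibody difference.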
